A study of Capra hircus with 36 samples.

Results

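The miR-15, miR-16, miR-195 and miR-497 family was read in goat tissue as every listed mature miRNA with one of those names, both arms included. The list of 1391 mature miRNAs held 12 of them, from 6 precursors. The 5p arms were chi-miR-15a-5p, chi-miR-15b-5p, chi-miR-16a-5p, chi-miR-16b-5p, chi-miR-195-5p and chi-miR-497-5p, and the 3p arms were chi-miR-15a-3p, chi-miR-15b-3p, chi-miR-16a-3p, chi-miR-16b-3p, chi-miR-195-3p and chi-miR-497-3p. The arm is the side of the hairpin precursor from which the mature miRNA comes, and the prefix chi- (Capra hircus) is left out from here on.

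Small RNA was sequenced from spleen, liver, lung, kidney, heart and longissimus muscle of adult female goats. The high-altitude population was the Tibetan Goat at 3000 m and the low-altitude population the Chuandong White Goat at 600 m, with 3 goats each and 1 library per goat and tissue, so 36 libraries in 12 groups of 3. The labels give an age above 3 years for both populations, and no treatment or genetic change. Breed and place of rearing changed together with altitude, so these cannot be told apart, and "altitude" below stands for all of them.

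A miRNA guides a silencing complex to messenger RNAs that pair with a short stretch near its 5′ end, the seed, and lowers their translation and stability. The 5p members of this family share their seed and are known for holding back the cell cycle, through cyclins and cyclin-dependent kinases, and for repressing the survival factor BCL2. Loss of the miR-15a and miR-16 locus is common in chronic lymphocytic leukemia, and miR-195 is known to increase in the mouse heart when its muscle cells stop dividing after birth.

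The precursor genes lie in pairs in the goat annotation (ARS1.2), where all 6 of 6 precursors were matched by name. MIR15A and MIR16A are neighbours. MIR16B and MIR15B are neighbours inside SMC4, a subunit of condensin, and lie between TRIM59 and IFT80. MIR195 and MIR497 are neighbours between C19H17orf49 and BCL6B.

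Levels are given as RPM, the reads of a miRNA per 1000000 counts of all listed mature miRNAs in the library. These totals ran from 7108635 to 14407748 counts, with a median of 10419740.5. A count of 0 allows up to 3 counts, which was 0.208 to 0.422 RPM depending on the library. The reads carry no molecular identifiers, so this limit covers counting error only. Values for 3 libraries are given in the order of goats 1, 2 and 3 of that population.

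The tissue labels were checked against known tissue miRNAs. Mean miR-208b-3p, encoded in a cardiac myosin gene, was 13405 RPM in heart and at most 1724 RPM in any other tissue. Mean miR-206-3p, a skeletal muscle miRNA, was 1633 RPM in muscle against at most 3.49 RPM elsewhere. Mean miR-122-5p, of hepatocytes, was 50587 RPM in liver, and no other tissue had a mean above 81.3 RPM. Its livers varied widely, at 16955, 6118 and 179917 RPM at high altitude and 26767, 53506 and 20257 RPM at low altitude. For lung, mean miR-34c-5p of ciliated epithelium was 5608 RPM against at most 22.4 RPM. For spleen, the mean of the leukocyte miRNA miR-142-5p was 33971 RPM against at most 11637 RPM, but miR-223-3p, also of leukocytes, was highest in lung at 394 RPM, before spleen at 371 RPM. In kidney, mean miR-10b-5p was highest at 314594 RPM, but miR-204-5p was close to its next tissue at 805 against 641 RPM. Kidney miR-192-5p was not listed and miR-194-5p was highest in liver, and among the lung names miR-449a-5p was not listed and miR-200a-3p was highest in kidney.

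The family made up a median of 0.942% of the counts of a library, from 0.198% in a high-altitude kidney to 2.78% in a high-altitude spleen. Its mean share was 1.71 ± 0.735% in spleen, 1.35 ± 0.672% in liver, 1.29 ± 0.618% in lung, 0.729 ± 0.337% in heart, 0.644 ± 0.207% in muscle and 0.429 ± 0.285% in kidney (SD, n = 6 each). The median was 0.585% over the 18 high-altitude libraries and 1.06% over the 18 low-altitude libraries, with ranges of 0.198% to 2.78% and 0.224% to 2.28%. Pooled over tissues, the populations thus overlapped over almost their whole ranges. Within tissues they overlapped too, except in muscle. The muscle shares were 0.424%, 0.566% and 0.563% at high and 0.590%, 0.692% and 1.03% at low altitude. Bulk libraries cannot tell fewer cells of a type from less RNA per cell.

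One member carried most of the reads. miR-16a-5p averaged 7985 ± 5254 RPM (SD, n = 36) and ranked 27 of 1391 by mean level, and it held a mean of 78.3% of the 5p counts of the family. miR-16b-5p ranked 75, miR-15a-5p 80, miR-497-5p 90, miR-195-5p 118 and miR-15b-5p 184. The only 3p arm with a mean of at least 10 RPM was miR-195-3p, at rank 273. These 7 members are described library by library, and the other 5 by their ranges.

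3 high-altitude libraries stood apart in the family. Both arms of miR-16b were at 0 counts in kidney of goat 2, liver of goat 1 and spleen of goat 3, where 3 counts would be 0.311, 0.381 and 0.273 RPM. The smallest miR-16b-5p count of the other 33 libraries was 1697. The mature miR-16a-5p and miR-16b-5p sequences of mammals are nearly identical, so the split of 5p reads depends on how the authors assigned them, which was not tested. The 3p sequences were not compared, and the cause of the 0 counts was not tested for either arm. Of the 147 miRNAs with a mean of at least 100 RPM, between 5 and 10 were at 0 in each of the 36 libraries. This count does not separate miRNAs absent from a whole tissue from those at 0 in a single library of a group. It therefore cannot show whether the 0 counts of miR-16b are unusual.

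**Figure D1:**
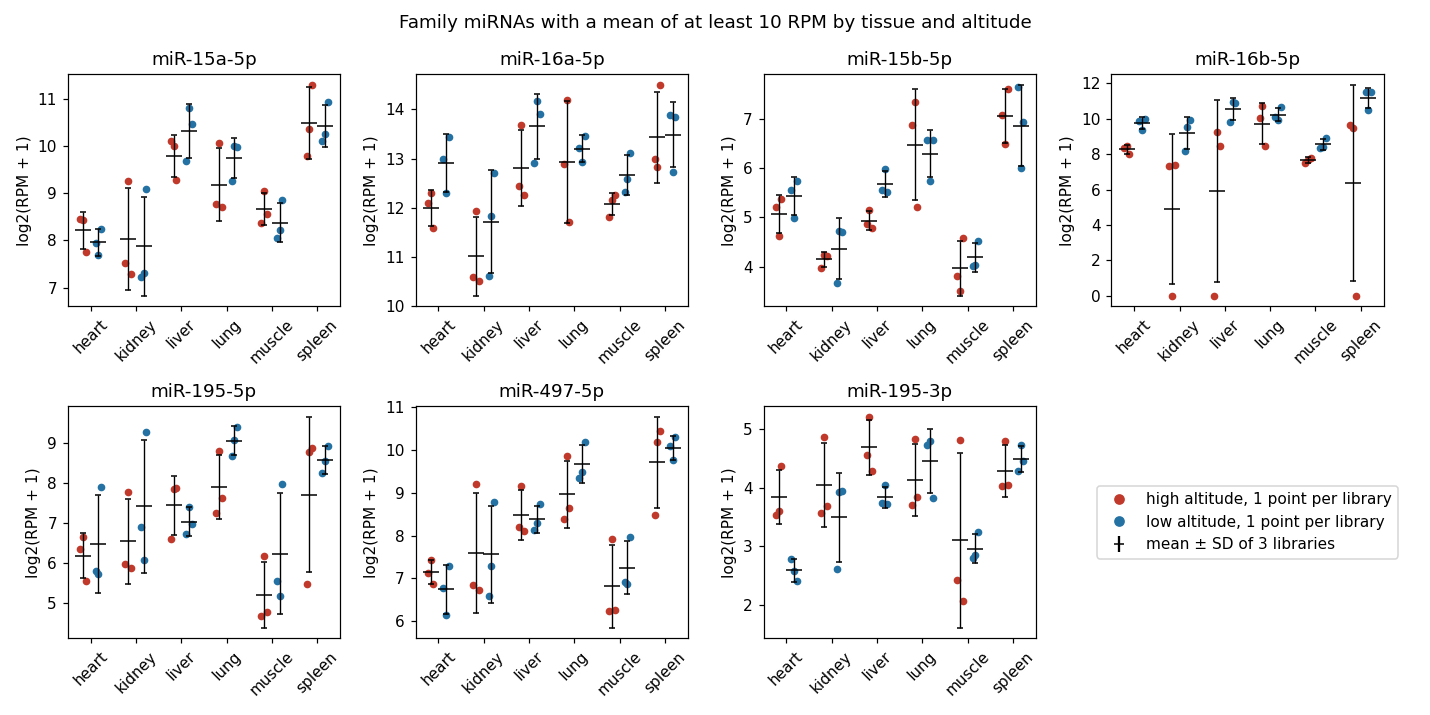
Level as log2(RPM + 1) (vertical axes) by tissue (horizontal axes) for the 7 members with a mean of at least 10 RPM, with 1 panel per member, 1 point per library colored by population, and black marks for the mean ± SD of 3 libraries. The high-altitude points of miR-16b-5p lie below the low-altitude points in every tissue except lung.

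miR-15a-5p and its neighbour miR-16a-5p form the cluster lost in leukemia. miR-15a-5p averaged 722 ± 562 RPM (SD, n = 36). In spleen, miR-15a-5p stood at 878, 1313 and 2511 RPM at high altitude and at 1095, 1216 and 1954 RPM at low altitude. Liver libraries held 1099, 1015 and 617 RPM of miR-15a-5p at high altitude and 817, 1776 and 1409 RPM at low altitude. Both tissues had overlapping populations, and goat 3 of the high-altitude spleens and goat 2 of the low-altitude livers were the highest of their tissue. In lung, miR-15a-5p stood at 437, 1069.8 and 415 RPM at high altitude and at 608, 1024 and 1011 RPM at low altitude. The muscle values of miR-15a-5p were 331, 524 and 379 RPM at high altitude and 264, 299.5 and 460.0 RPM at low altitude. In lung, goats 1 and 3 of the high-altitude population lay under the other 4, and the muscle values were mixed. In kidney, miR-15a-5p stood at 182, 616 and 157 RPM at high altitude and at 149, 159 and 542 RPM at low altitude. Heart libraries held 351, 344 and 215 RPM of miR-15a-5p at high altitude and 245, 205 and 301 RPM at low altitude. In kidney, goat 2 of the high-altitude and goat 3 of the low-altitude population stood far above the other 4 libraries, and in heart the populations overlapped.

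By tissue, mean miR-15a-5p (RPM ± SD, n = 6 each) was 1495 ± 616 in spleen, 1122 ± 417 in liver, 761 ± 308 in lung, 376 ± 99.4 in muscle, 301 ± 217 in kidney and 277 ± 64.1 in heart. Tissues were compared with edgeR's quasi-likelihood F-test on the counts of all 1391 miRNAs, scaled by TMM, with p-values adjusted by Benjamini-Hochberg over all miRNAs and called under 0.05. TMM (trimmed mean of M-values) rescales the libraries so that most miRNAs keep their level. SE denotes the standard error, taken as the size of the log2 difference over the square root of F. miR-15a-5p differed among tissues (adjusted p = 4.09e-06). Pairs of tissues were adjusted over all miRNAs and all 15 pairs, and 8 of 15 were called for it. With the goats as a block, heart and muscle were called too (adjusted p = 0.041). The farthest apart were kidney and spleen (log2 kidney minus spleen -2.02, SE 0.288, adjusted p = 4.70e-06, in 6 of 6 goats by RPM). Among neighbours in the order, 1 of 5 was called, muscle and kidney (log2 kidney minus muscle -1.21, SE 0.281, adjusted p = 0.00283, in 4 of 6 goats by RPM), so the other 4 neighbour pairs were not told apart.

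miR-16a-5p was the most abundant member in all 36 libraries. In spleen, miR-16a-5p stood at 8101, 7253 and 23206 RPM at high altitude and at 15116, 6783 and 14816 RPM at low altitude. Liver libraries held 5594, 13165 and 4911 RPM of miR-16a-5p at high altitude and 7715, 18424 and 15296 RPM at low altitude. Populations overlapped in both, and goat 3 of the high-altitude spleens held the highest value of the family in any library. In lung, miR-16a-5p stood at 7626, 18716 and 3356 RPM at high altitude and at 9487, 7816 and 11338 RPM at low altitude. The heart values of miR-16a-5p were 4406, 5034 and 3059.5 RPM at high altitude and 8179, 5008 and 11175 RPM at low altitude. Goat 2 of the high-altitude lungs stood above all 5 other lungs, and in heart the populations overlapped by 1 library on each side. In muscle, miR-16a-5p stood at 3607, 4574 and 4893 RPM at high altitude and at 5120.2, 6109 and 8823 RPM at low altitude. Kidney libraries held 1536, 3924 and 1456 RPM of miR-16a-5p at high altitude and 1567, 3640.4 and 6637 RPM at low altitude. In muscle every high-altitude library lay under every low-altitude library, while in kidney they overlapped.

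By tissue, mean miR-16a-5p (RPM ± SD, n = 6 each) was 12546 ± 6425 in spleen, 10851 ± 5572 in liver, 9723 ± 5140.1 in lung, 6144 ± 2983 in heart, 5521 ± 1809 in muscle and 3127 ± 2048 in kidney. It differed among tissues (edgeR adjusted p = 0.000212), and all 5 of its 15 pairs that were called had kidney on the low side. Kidney lay under spleen (log2 kidney minus spleen -1.72, SE 0.285, adjusted p = 4.74e-05, in 6 of 6 goats). Kidney also lay under muscle (log2 kidney minus muscle -1.73, SE 0.285, adjusted p = 4.48e-05, in 6 of 6 goats), and of the 5 neighbour pairs in the order this was the 1 called.

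The order of tissues depended on the scaling. Mean TMM factors were 0.599 in muscle, 0.780 in heart, 1.03 in kidney, 1.31 in liver, 1.33 in spleen and 1.43 in lung (n = 6 each), a mean log2 factor from -0.78 to 0.45. After this scaling mean miR-16a-5p was highest in muscle at 9303 TMM-scaled RPM, followed by spleen at 9179.9, and kidney stayed lowest at 2855. Spleen was highest under both scalings for miR-15a-5p, miR-15b-5p, miR-16b-5p, miR-497-5p and miR-195-3p, and lung was highest under both for miR-195-5p.

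miR-15b-5p, which shares a cluster with miR-16b, was the scarcest 5p member at 56.5 ± 51.0 RPM (SD, n = 36). In spleen, miR-15b-5p stood at 133, 88.8 and 193 RPM at high altitude and at 199, 62.7 and 122 RPM at low altitude. Lung libraries held 116, 161 and 36.1 RPM of miR-15b-5p at high altitude and 94.3, 52.5 and 93.3 RPM at low altitude. The populations overlapped in spleen and lung, with goat 3 of the high-altitude lungs lowest. In liver, miR-15b-5p stood at 28.1, 34.5 and 26.4 RPM at high altitude and at 45.8, 62.0 and 44.4 RPM at low altitude. The heart values of miR-15b-5p were 36.1, 23.6 and 40.2 RPM at high altitude and 46.1, 30.8 and 52.2 RPM at low altitude. Every high-altitude liver was under every low-altitude liver, and the hearts overlapped. In kidney, miR-15b-5p stood at 14.8, 17.8 and 17.6 RPM at high altitude and at 11.6, 25.5 and 25.2 RPM at low altitude. Muscle libraries held 13, 10.3 and 23.0 RPM of miR-15b-5p at high altitude and 15, 15.4 and 22.0 RPM at low altitude. Kidney and muscle values were low in both populations and overlapped.

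By tissue, mean miR-15b-5p (RPM ± SD, n = 6 each) was 133 ± 54.7 in spleen, 92.2 ± 44.8 in lung, 40.2 ± 13.4 in liver, 38.2 ± 10.3 in heart, 18.7 ± 5.56 in kidney and 16.5 ± 5.02 in muscle. It differed among tissues (edgeR adjusted p = 4.77e-06), with 8 of 15 pairs called. Kidney and spleen were farthest apart (log2 kidney minus spleen -2.34, SE 0.341, adjusted p = 6.54e-06, in 6 of 6 goats). Of its 5 neighbour pairs, lung exceeded liver (log2 liver minus lung -1.07, SE 0.328, adjusted p = 0.0258, in 5 of 6 goats) and heart exceeded kidney (log2 heart minus kidney 1.33, SE 0.330, adjusted p = 0.00504, in 6 of 6 goats). The other 3 neighbour pairs were not told apart.

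miR-16b-5p, from the same cluster as miR-15b, averaged 803 ± 742 RPM (SD, n = 36). In heart, miR-16b-5p stood at 321, 353 and 257 RPM at high altitude and at 944, 657 and 1024 RPM at low altitude. Muscle libraries held 182, 207 and 224 RPM of miR-16b-5p at high altitude and 326, 338 and 479 RPM at low altitude. In both tissues every high-altitude library was under every low-altitude library, and none of these 12 libraries was at 0. In kidney, miR-16b-5p stood at 159, 0 and 169.8 RPM at high altitude and at 285, 738 and 962 RPM at low altitude. The liver values of miR-16b-5p were 0, 619 and 353 RPM at high altitude and 909, 1961 and 1879 RPM at low altitude. Spleen libraries held 816, 723 and 0 RPM of miR-16b-5p at high altitude and 2893, 1444 and 2900.4 RPM at low altitude. In these 3 tissues the populations again did not overlap, whether or not the library at 0 was counted. In lung, miR-16b-5p stood at 1058, 1678 and 348 RPM at high altitude and at 1113, 989 and 1615 RPM at low altitude. Only in lung did the populations overlap, with goat 2 of the high-altitude population highest and goat 3 lowest.

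By tissue, mean miR-16b-5p (RPM ± SD, n = 6 each) was 1463 ± 1201 in spleen, 1134 ± 484 in lung, 953 ± 807 in liver, 593 ± 334 in heart, 386 ± 378 in kidney and 293 ± 112 in muscle. The tissue test did not call it (edgeR adjusted p = 1), and 0 of its 15 tissue pairs were called. Leaving out the 3 libraries at 0, a choice made after seeing the data, ended this, and miR-16b-5p then differed among tissues (edgeR adjusted p = 0.00404).

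miR-195-5p and miR-497-5p come from 1 cluster. miR-195-5p averaged 212 ± 185 RPM (SD, n = 36). In lung, miR-195-5p stood at 152, 442 and 196 RPM at high altitude and at 408, 537 and 675 RPM at low altitude. Spleen libraries held 43.3, 437 and 469.7 RPM of miR-195-5p at high altitude and 301, 375 and 486 RPM at low altitude. The populations overlapped in both, with goat 1 of the high-altitude population lowest in each. In kidney, miR-195-5p stood at 62.0, 217 and 57.9 RPM at high altitude and at 119, 66.0 and 614 RPM at low altitude. The heart values of miR-195-5p were 80.3, 99.8 and 46.3 RPM at high altitude and 54.4, 52.4 and 236 RPM at low altitude. Muscle libraries held 24.7, 70.7 and 26.6 RPM of miR-195-5p at high altitude and 46.3, 34.9 and 249 RPM at low altitude. In each of these 3 tissues goat 3 of the low-altitude population was far above the other 5 libraries. In liver, miR-195-5p stood at 95.4, 230.0 and 233 RPM at high altitude and at 104, 169 and 125 RPM at low altitude. In liver that goat was not the highest, and the populations overlapped.

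By tissue, mean miR-195-5p (RPM ± SD, n = 6 each) was 402 ± 199 in lung, 352 ± 166 in spleen, 189 ± 217 in kidney, 159 ± 61.4 in liver, 94.8 ± 71.9 in heart and 75.3 ± 86.6 in muscle. It passed the tissue test narrowly (edgeR adjusted p = 0.0483), with 0 of its 15 tissue pairs called. With the goats as a block 3 pairs were called, lung and muscle (adjusted p = 0.0119), muscle and spleen (0.0228) and heart and lung (0.0431). Leaving out goat 3 of the low-altitude population gave 0.0134, while leaving out any other goat ended the call. Those values were 0.0567, 0.232 and 0.317 without goats 1, 2 and 3 of the high-altitude population, and 0.246 and 0.196 without goats 1 and 2 of the low-altitude population. Without the 3 libraries at 0 for miR-16b it was 0.138.

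miR-497-5p averaged 434 ± 389 RPM (SD, n = 36). In spleen, miR-497-5p stood at 359, 1170.3 and 1392 RPM at high altitude and at 1088, 863 and 1261 RPM at low altitude. Lung libraries held 336, 926 and 399 RPM of miR-497-5p at high altitude and 648, 718 and 1161 RPM at low altitude. The populations overlapped in both, and goat 1 of the high-altitude population was lowest in each. In liver, miR-497-5p stood at 292, 567 and 274 RPM at high altitude and at 279, 311 and 424.2 RPM at low altitude. The kidney values of miR-497-5p were 113, 588 and 105 RPM at high altitude and 96.2, 155 and 443 RPM at low altitude. In liver goat 2 of the high-altitude population was highest, and in kidney goat 2 of the high-altitude and goat 3 of the low-altitude population stood above the rest. In muscle, miR-497-5p stood at 74.5, 242 and 76.5 RPM at high altitude and at 119.8, 116 and 249.8 RPM at low altitude. Heart libraries held 138, 173 and 116 RPM of miR-497-5p at high altitude and 109, 70.4 and 156 RPM at low altitude. The populations overlapped in muscle and heart, with the same 2 goats highest in muscle.

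By tissue, mean miR-497-5p (RPM ± SD, n = 6 each) was 1022 ± 370.2 in spleen, 698 ± 313 in lung, 358 ± 116 in liver, 249.9 ± 211 in kidney, 146 ± 79.5 in muscle and 127 ± 36.7 in heart. It differed among tissues (edgeR adjusted p = 3.48e-06), with 7 of 15 pairs called, and 0 of these 7 joined neighbours in the order. With the goats as a block the neighbours lung and liver were called as well (adjusted p = 0.0188), as were heart and liver (0.0376). Heart and spleen were farthest apart (log2 heart minus spleen -2.20, SE 0.331, adjusted p = 1.05e-05, in 6 of 6 goats).

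miR-195-3p, the arm opposite miR-195-5p, averaged 15.4 ± 8.44 RPM (SD, n = 36). In heart, miR-195-3p stood at 10.7, 11.1 and 19.6 RPM at high altitude and at 5.90, 5.01 and 4.29 RPM at low altitude. Liver libraries held 22.6, 36.1 and 18.6 RPM of miR-195-3p at high altitude and 12.4, 15.5 and 12.3 RPM at low altitude. In heart and liver every high-altitude library was above every low-altitude library. In kidney, miR-195-3p stood at 10.9, 28.2 and 11.8 RPM at high altitude and at 5.16, 14.3 and 14.4 RPM at low altitude. The lung values of miR-195-3p were 12.1, 27.5 and 13.4 RPM at high altitude and 25.5, 26.9 and 13.2 RPM at low altitude. The populations overlapped in kidney and lung. In muscle, miR-195-3p stood at 4.37, 27.1 and 3.21 RPM at high altitude and at 5.97, 6.20 and 8.50 RPM at low altitude. Spleen libraries held 15.3, 26.9 and 15.5 RPM of miR-195-3p at high altitude and 18.6, 25.4 and 21 RPM at low altitude. In muscle goat 2 of the high-altitude population stood far above the other 5 libraries, and in spleen the populations overlapped. By tissue, mean miR-195-3p (RPM ± SD, n = 6 each) was 20.5 ± 4.91 in spleen, 19.8 ± 7.56 in lung, 19.6 ± 8.98 in liver, 14.1 ± 7.67 in kidney, 9.44 ± 5.78 in heart and 9.23 ± 8.95 in muscle, and the tissue test did not call it (edgeR adjusted p = 1).

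The other 3p arms were scarce. miR-497-3p averaged 7.46 RPM, from 0.208 to 29.5 RPM, and its mean was highest in lung at 18.2 ± 8.45 RPM and lowest in muscle at 0.937 ± 0.701 RPM (SD, n = 6 each). miR-16b-3p averaged 6.22 RPM, from 0 to 46.0 RPM with 4 libraries at 0, and was highest in spleen at 20.9 ± 17.8 RPM. Its lowest mean was 1.61 ± 1.14 RPM, in muscle. After TMM scaling its lowest mean was instead in lung, at 2.14 TMM-scaled RPM, with muscle at 2.83. miR-15b-3p averaged 3.79 RPM, from 0 to 22.7 RPM with 1 library at 0, and was highest in lung at 12.9 ± 8.03 RPM and lowest in muscle at 0.337 ± 0.349 RPM. For miR-15b, then, the 3p arm was highest in lung while the 5p arm was highest in spleen. miR-16a-3p averaged 2.43 RPM, from 0 to 8.51 RPM with 1 library at 0. It was highest in spleen at 6.72 ± 2.11 RPM and lowest in muscle at 0.584 ± 0.432 RPM. TMM scaling put its lowest mean in kidney, at 0.885 TMM-scaled RPM, with muscle at 0.947. miR-15a-3p averaged 1.59 RPM, from 0 to 6.57 RPM with 1 library at 0, and was highest in spleen at 5.0 ± 2.43 RPM and lowest in heart at 0.211 ± 0.117 RPM. The edgeR tissue test called miR-497-3p (adjusted p = 1.18e-05), miR-15b-3p and miR-16a-3p (0.00051 each) and miR-15a-3p (0.00807), and not miR-16b-3p (0.0885). miR-16b-3p was called by DESeq2's likelihood ratio test (adjusted p = 0.0041), and by edgeR with library totals alone (0.0126) and without the 3 libraries at 0 (0.00151). Its value was 0.324 with the goats as a block and ranged from 0.0503 to 0.708 with single goats left out. The call of miR-15a-3p was lost without goat 3 of the high-altitude population or without any single low-altitude goat, at adjusted p = 0.054 without the first of these and 0.0613, 0.0843 and 0.0927 without low-altitude goats 1, 2 and 3.

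Over the whole family, 9 of 12 members differed among tissues, where 39.3% of all 1391 miRNAs did. Among miRNAs with a mean of at least 10 RPM it was 5 of 7 members against 82.8%, so the family's count was not high for its abundance. Of tissue pairs 46 of 180 were called against 13.4% of all, and among those of at least 10 RPM 28 of 105 against 38.1%. With single goats left out, 26 to 37 of the 180 were called, and 1896 to 2185 of all 20865. The 46 called pairs included spleen 21 times, kidney 18 times, lung 17 times, heart and muscle 13 times each and liver 10 times. Between neighbours in the order of mean RPM, 4 of 60 contrasts of the 12 members were called. With the goats as a block, lung and liver of miR-497-5p and liver and kidney of miR-15b-3p (adjusted p = 0.0408) were called too.

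The tissue specificity index (TSI) is 0 for a miRNA at the same level in all tissues and 1 for a miRNA read in 1 tissue. It was 0.436 for miR-16a-5p, 0.541 for miR-16b-5p, 0.566 for miR-195-5p, 0.620 for miR-15a-5p, 0.690 for miR-15b-5p and 0.691 for miR-497-5p. The median of these 6 was 0.593, against 0.858 over all miRNAs and 0.696 over the 308 miRNAs with a mean of at least 10 RPM. miR-195-3p had a TSI of 0.295.

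Markers of other cell types moved with some of these values. The summed leukocyte miRNAs (5 of 5 listed, most abundant miR-142-5p) were 17602, 67519 and 62123 RPM in high-altitude spleens and 36569.8, 35256 and 40326 RPM in low-altitude spleens. Goat 1 of the high-altitude population was lowest for them, as it was for miR-15a-5p, miR-195-5p and miR-497-5p. The sum is mostly miR-142-5p, and for miR-155-5p of the same list that spleen was the highest of 6, at 2474 RPM. The summed endothelial miRNAs (2 of 2 listed, most abundant miR-126-3p) were 13483, 38674 and 7543 RPM in high-altitude lungs and 16815, 26479.6 and 24913 RPM in low-altitude lungs. Goat 2 of the high-altitude population was highest for them as for miR-16a-5p. That lung was also highest for the leukocyte sum, at 14795 RPM with the next at 11635 RPM. For the summed lung miRNAs it stood at 11138 RPM with the next at 8695 RPM, and for the erythroid sum it was lowest, at 0 RPM. The summed kidney miRNAs (3 of 4 listed, most abundant miR-10b-5p) were 398621, 218526 and 400039 RPM in high-altitude and 403462, 316894 and 170253 RPM in low-altitude kidneys. The 2 kidneys with the lowest sums, goat 2 at high and goat 3 at low altitude, were the 2 highest for miR-15a-5p, miR-195-5p and miR-497-5p. These kidneys were also highest for the endothelial sum, at 13803 and 13744 RPM against at most 7604 RPM in the others. The 2 rows of that sum went opposite ways between kidney populations. Mean miR-126-3p was 3947 RPM at high and 6684 RPM at low altitude, and mean miR-126-5p 5525 and 2036 RPM. The summed lung miRNAs, in kidney mostly miR-200a-3p, were 1583 and 3785 RPM in the same 2 kidneys against at most 1274 RPM in the others.

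miR-16b-5p separated the populations in 5 tissues, and some markers did so in the same tissues. Of all combinations at a mean of at least 10 RPM, 12% separated lower and 10.2% higher at high altitude. The summed smooth muscle miRNAs (2 of 2 listed, most abundant miR-143-3p) were 180756, 115865 and 189297 RPM in high-altitude hearts and 68517, 75539.8 and 58915 RPM in low-altitude hearts. In muscle they were 55241, 23012 and 51074 RPM at high and 17366, 21060.1 and 22234 RPM at low altitude, so every high-altitude library was above in both tissues. Nearly all of this sum is miR-143-3p, and mean miR-145-5p of the same list went the other way, at 423 against 1163 RPM in heart and 213 against 337 RPM in muscle (high against low altitude). In spleen the smooth muscle sum was instead lower at high altitude without overlap, at 356084, 400367 and 367739 RPM at high and 409401, 563335 and 447855 RPM at low altitude, and mean miR-145-5p was lower too, at 2075 against 4831 RPM. The smooth muscle sum was also lower without overlap in lung, where miR-16b-5p overlapped. The lungs stood at 149442, 154167 and 253381 RPM at high and 290095, 301529 and 264381 RPM at low altitude. In liver and kidney this sum overlapped. Skeletal muscle miRNAs in kidney summed to 765, 664 and 1056 RPM at high and 101, 303 and 302 RPM at low altitude. Heart miRNAs summed to 72.3, 62.4 and 170 RPM against 4.05, 31.0 and 10.4 RPM in kidney. In liver they summed to 287, 227 and 187 RPM against 17.8, 141 and 19.5 RPM. Mean miR-1-3p and miR-208a-3p of these lists went the other way in kidney, at 19.7 against 37.7 RPM and 0 against 0.0888 RPM. The leukocyte sum of the hearts was 3509, 2002 and 2818 RPM at high and 1924, 1885 and 1531 RPM at low altitude, again without overlap. Most of it is miR-142-5p, while the means of miR-142-3p (48.9 against 94.5 RPM) and miR-150-5p (236 against 245 RPM) were lower in high-altitude hearts and those of miR-155-5p (66.5 against 36.6 RPM) and miR-223-3p (37.9 against 12.6 RPM) higher, so 3 of 5 went with the sum. The summed skeletal muscle miRNAs (3 of 3 listed, most abundant miR-133a-3p) lay lower in high-altitude muscle, at 238582, 246085 and 182812 RPM against 258292, 277656 and 288443 RPM. Among them, miR-206-3p averaged 536 RPM in muscle at high and 2730.1 RPM at low altitude, and miR-1-3p 1733 RPM and 20061 RPM. The part of these other miRNAs in the family's levels was not tested, so a different mix of cells cannot be told apart from a different level within cells.

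Between altitudes, most combinations of a member and a tissue overlapped and none was called by edgeR. Within each tissue the 3 high-altitude libraries were compared with the 3 low-altitude libraries by the edgeR quasi-likelihood test over all 1391 miRNAs, called at an adjusted p under 0.05 and a log2 fold change (high over low) of at least 1.5 in size. Of the 72 combinations of 12 members and 6 tissues 0 were called, against 0.0359% of all. An unadjusted p under 0.05 was found for 4 of 72, 1 higher and 3 lower at high altitude, against 5.32% of all 8346 combinations. Of these 2922 had no counts in the tissue and could not pass, and over the other 5424 the share was 8.19%. Among members with a mean of at least 10 RPM it was 3 of 42, against 15.3%. DESeq2's Wald test called 2 of 72, both lower at high altitude, against 3.45%. The edgeR exact test called 0 of 72, against 0.359%, with 2 at an unadjusted p under 0.05, against 4.57%.

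miR-16b-5p in heart had the smallest p of the 72. With every high-altitude heart under every low-altitude heart, its log2 fold change was -1.66 (SE 0.312, edgeR unadjusted p = 0.00154, adjusted p = 0.237). DESeq2 called it at -1.67 (adjusted p = 6.55e-06). In heart, miR-16a-5p gave -1.11 (SE 0.375, edgeR unadjusted p = 0.0240, adjusted p = 0.615), with 2 of 3 high-altitude hearts under all low-altitude hearts. The arm miR-195-3p lay higher in the 3 high-altitude hearts and gave 1.24 (SE 0.419, edgeR unadjusted p = 0.0235, adjusted p = 0.615). In spleen, miR-15b-3p stood at 1.64, 2.01 and 1.18 RPM at high altitude and at 11.3, 4.49 and 7.01 RPM at low altitude. Its 3 high-altitude spleens lay under the 3 low-altitude spleens, with a log2 fold change of -2.25 (SE 0.672, edgeR unadjusted p = 0.0133, adjusted p = 0.729). DESeq2 called miR-15b-3p in spleen at -2.21 (adjusted p = 0.00279).

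For miR-16b-5p the fitted log2 fold changes were -2.29 in liver, -2.19 in spleen, -2.01 in kidney, -1.66 in heart, -0.74 in muscle and -0.28 in lung, all below 0. Without the libraries at 0 they were -1.43 in kidney, -1.71 in liver and -1.60 in spleen, with 0 of 72 combinations called by edgeR, against 0.0120% of all, and 7 at an unadjusted p under 0.05, against 5%. With single goats left out they ranged from -2.46 to -1.43 in kidney and from -2.88 to -1.60 in spleen. For miR-16a-5p they were -1.11 in heart, -0.78 in liver, -0.67 in kidney, -0.46 in muscle, 0.00 in lung and 0.02 in spleen. For miR-195-5p they were -1.29 in muscle, -1.18 in kidney, -0.93 in lung, -0.68 in heart, -0.45 in spleen and 0.62 in liver. Those in muscle, kidney and heart rested on goat 3 of the low-altitude population, without which they were -0.13 in muscle, -0.42 in kidney and 0.18 in heart, and with single goats left out they ranged from -1.69 to -0.13 in muscle, from -1.54 to -0.42 in kidney and from -1.09 to 0.18 in heart. For miR-195-3p they were -0.27 in spleen, -0.21 in lung, 0.62 in muscle, 0.64 in kidney, 1.01 in liver and 1.24 in heart, with -0.50 to 1.02 in muscle when single goats were left out. For miR-15a-5p they were -0.42 in liver, -0.38 in lung, 0.05 in spleen, 0.12 in heart, 0.15 in kidney and 0.39 in muscle, for miR-15b-5p -0.65 in liver, -0.55 in heart, -0.12 in kidney, 0.04 in muscle, 0.11 in spleen and 0.38 in lung, and for miR-497-5p -0.51 in lung, -0.28 in muscle, -0.25 in spleen, 0.15 in kidney, 0.19 in liver and 0.21 in heart. With single goats left out the sign also turned for miR-15a-5p in spleen, heart and kidney, miR-16a-5p in spleen and lung, miR-15b-5p in spleen, muscle and kidney, miR-16b-5p in lung, miR-195-5p in spleen, miR-497-5p in spleen, heart and kidney and miR-195-3p in lung.

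Counted by overlap, 7 of 42 combinations of at least 10 RPM had every high-altitude library under every low-altitude library, against 12% of all miRNAs at that level. These were miR-16b-5p in 5 tissues, miR-15b-5p in liver and miR-16a-5p in muscle. In 2 of 42 every high-altitude library was above, against 10.2%, and both were miR-195-3p, in heart and liver. The 5 scarcer members had every high-altitude library lower in 8 of 30 combinations, against 9.24% of the 229 miRNAs with a mean from 1 to under 10 RPM, the range that holds these 5. These were miR-16a-3p in spleen, heart, lung and liver, miR-15b-3p in spleen and lung, miR-497-3p in lung and miR-16b-3p in liver. Every high-altitude library was higher in 0 of 30, against 3.93%.

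The median log2 fold change of the 12 members was -0.62 in lung, -0.55 in spleen, -0.42 in liver, -0.35 in heart, -0.12 in muscle and 0.15 in kidney, against -0.00321, -0.03, -0.09, 0.10, 0.22 and -0.21 in the same order over the miRNAs with counts in that tissue (838 to 992). For the 7 members with a mean of at least 10 RPM it was -0.28, -0.25, -0.42, -0.55, -0.28 and -0.12 in the same order of tissues, against 0, 0.03, -0.06, 0.01, 0.16 and -0.05 over the 308 miRNAs at that level.

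Whether altitude differences varied among tissues was tested as an interaction in 1 edgeR fit over 36 libraries. It called 0 of 12 members, against 0.216% of all miRNAs, and 0 of 12 had an unadjusted p under 0.05, against 6.69%. DESeq2's likelihood ratio test called 0 of 12, against 3.46%, and found an unadjusted p under 0.05 for 1, miR-16a-3p, against 8.94%. The lack of overlap in some tissues and not in others is therefore not shown to be a difference between tissues.

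The 6 libraries of a goat were also averaged, as the mean of log2(RPM + 1), to give 1 value per goat. For miR-16b-5p the goats stood at 7.15, 7.61 and 6.69 at high altitude and at 9.64, 9.78 and 10.31 at low altitude. The 3 high-altitude goats lay under the 3 low-altitude goats, with a difference of -2.76 (exact permutation test, two-sided, p = 0.1). With 20 assignments of 3 against 3 goats 0.1 is the smallest p this test can give, so no member could reach 0.05. Each high-altitude goat has 1 library at 0, which enters as 0, so the size depends on the number added before the logarithm. It was -3.32 with 0.1 and -2.19 with 10 in place of 1, and -0.96 over heart, lung and muscle alone, which hold no count of 0 for miR-16b-5p, and the exact p was 0.1 each time. For miR-16a-5p the goats stood at 12.14, 12.85 and 12.14 against 12.66, 12.75 and 13.41, a difference of -0.57 (exact p = 0.3) with overlap.

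The remaining goat means overlapped between populations as well. miR-15b-5p stood at 5.30, 5.22 and 5.29 against 5.50, 5.25 and 5.66, a difference of -0.20 (exact p = 0.3). miR-195-5p stood at 6.05, 7.67 and 6.77 against 6.98, 7.0 and 8.40, a difference of -0.63 (exact p = 0.4). In both populations the goat at the top for miR-195-5p was also the top goat for miR-497-5p and miR-15a-5p. miR-497-5p stood at 7.55, 8.96 and 7.84 against 7.98, 7.97 and 8.88, a difference of -0.16 (exact p = 0.6). miR-15a-5p stood at 8.83, 9.52 and 8.81 against 8.71, 9.05 and 9.59, a difference of -0.06 (exact p = 0.9). The last 2 differences turned their sign when single goats were left out, from -0.58 to 0.14 for miR-497-5p and from -0.29 to 0.18 for miR-15a-5p. miR-195-3p stood at 3.64, 4.69 and 3.72 against 3.50, 3.82 and 3.60, a difference of 0.38 (exact p = 0.4). Leaving out single goats moved this from 0.04 to 0.56, and the difference of miR-195-5p from -1.05 to -0.16. For miR-15b-5p the range was -0.31 to -0.10, and for miR-16a-5p -0.80 to -0.33.

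**Figure D2:**
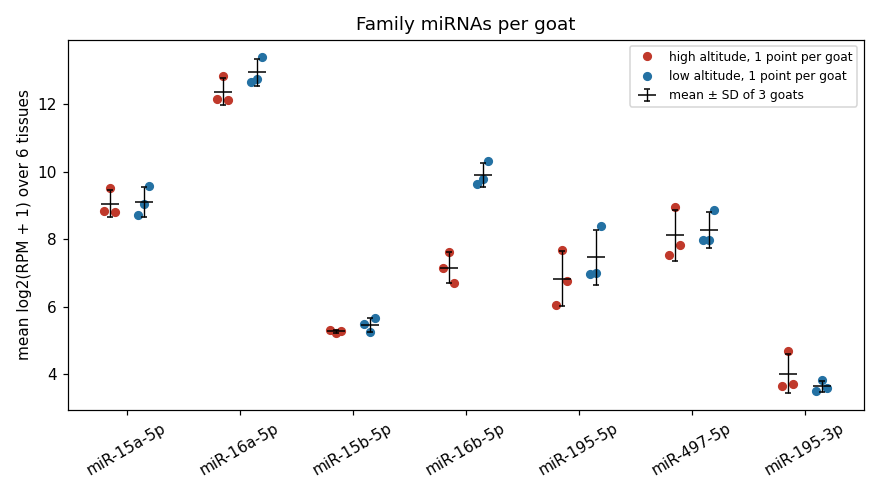
Mean log2(RPM + 1) over 6 tissues (vertical axis) for the 7 members with a mean of at least 10 RPM (horizontal axis), with 1 point per goat colored by population and black marks for the mean ± SD of 3 goats. The populations lie apart for miR-16b-5p, at 6.69 to 7.61 against 9.64 to 10.31, and overlap for the other 6. Each high-altitude mean of miR-16b-5p includes 1 library at 0 counts, which widens this gap.

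The share of miR-16b-5p within miR-16 was lower at high altitude without overlap in 5 of 6 tissues. How often such ratios of other miRNAs separate the populations was not counted, so it is not known whether this is unusual. miR-16b-5p made up 6.31% of miR-16a-5p and miR-16b-5p together over the 18 high-altitude libraries, and 11.5% over the 18 low-altitude libraries, as means of library shares with the 3 libraries at 0 entered as 0%. Over the 15 high-altitude libraries with reads the mean was 7.58%. In heart the share ranged from 6.55% to 7.74% at high and from 8.40% to 11.6% at low altitude. In muscle it ranged from 4.33% to 4.81% at high and from 5.15% to 5.99% at low altitude. In liver the highest share at high altitude was 6.70% and the lowest at low altitude 9.62%. In kidney these were 10.4% and 12.7%, and in spleen 9.16% and 16.1%. The populations did not overlap in these 5 tissues, and in lung they did, at 8.23% to 12.2% against 10.5% to 12.5%. In kidney, liver and spleen a high-altitude library at 0 entered as 0%, and the populations stayed apart there without these libraries. This share is a ratio within a library and was not tested. It depends on how the authors assigned reads between the nearly identical miR-16a-5p and miR-16b-5p sequences, which was not tested either.

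Ratios inside the clusters describe the same goats. Over 18 libraries each, miR-16a-5p was 10.6 ± 3.76 times miR-15a-5p at high altitude and 16.2 ± 8.83 times at low altitude (SD). miR-16b-5p was 11.3 ± 4.01 times miR-15b-5p in the 15 high-altitude libraries with miR-16b reads and 23.4 ± 7.66 times in the 18 low-altitude libraries. miR-497-5p was 2.70 ± 1.51 times miR-195-5p at high and 1.99 ± 0.927 times at low altitude. It was under 1 in 3 low-altitude libraries, at 0.664 in heart of goat 3, 0.721 in kidney of goat 3 and 0.806 in kidney of goat 1. The 3p arm held 13.5 ± 7.86% of miR-195 at high and 7.29 ± 4.49% at low altitude. These ratios were not tested.

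Erythroid miRNAs were also read beside the libraries without miR-16b. The erythroid sum (2 of 3 listed, most abundant miR-486-5p, with miR-451-5p not listed) was 595, 13.4 and 758 RPM in high-altitude kidneys, where goat 2 lacked miR-16b. It was 30.1, 6196 and 4283 RPM in high-altitude livers, where goat 1 lacked it. It was 11988, 112 and 210.1 RPM in high-altitude spleens, where goat 3 lacked it. Mean miR-486-5p over these spleens was 3996 RPM and mean miR-144-5p 107 RPM. Goat 1 held nearly all of this miR-486-5p, and the low sums of goats 2 and 3 were nearly all miR-144-5p. At low altitude the erythroid sum was 8704, 9581 and 8360.3 RPM in liver, above every high-altitude liver, as miR-16b-5p and miR-15b-5p were. It was 375, 482 and 363 RPM in kidney and 3747, 3222 and 5929 RPM in spleen at low altitude, where the populations overlapped. Within high altitude the library lacking miR-16b was lowest in kidney and liver, and in spleen goat 2 was lower still. In high-altitude lungs the sum was 18758, 0 and 5054 RPM, and goat 2, at 0, held 1678 RPM of miR-16b-5p. In heart the sum averaged 29743 RPM at high and 15071 RPM at low altitude. In muscle it averaged 29685 and 16073 RPM, and the populations overlapped in both tissues. By tissue mean, most of the sum is miR-486-5p, which was highest in muscle, at 22873.5 RPM. The part of blood in these values was not tested.

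Members of a cluster varied together over the libraries, on the scale of log2(RPM + 1). Libraries of 1 goat share an animal, so the values describe these libraries and carry no p. For miR-195-5p and miR-497-5p Pearson's r was 0.863 and Spearman's rho 0.841 over 36 libraries. Without the 2 libraries farthest from the median r was 0.841, and for deviations from the means of the 12 groups it was 0.846. For miR-15a-5p and miR-16a-5p r was 0.794 and rho 0.729 over 36 libraries, with 0.754 without the 2 farthest and 0.794 for the deviations. For miR-15b-5p and miR-16b-5p r was 0.821 and rho 0.830 over the 33 libraries with miR-16b reads, with 0.787 without the 2 farthest and 0.797 for the deviations. Pairs across clusters could be as close. The deviations of miR-16a-5p and miR-16b-5p had r = 0.961 over 33 libraries, and those of miR-15a-5p and miR-497-5p had r = 0.857 over 36 libraries. The miR-16a-5p and miR-16b-5p sequences are nearly identical, and the part of read assignment in their r was not tested. The 2 arms of miR-195 had r = 0.580 and rho 0.544, with 0.476 without the 2 farthest and 0.384 for the deviations.

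Among 217 candidate miRNAs, the pattern most like miR-15a-5p over 36 libraries was that of let-7g-5p (r = 0.928), followed by miR-106b-3p (0.903) and miR-130b-3p (0.890). The most like miR-497-5p was miR-93-5p (r = 0.887), and the most like miR-195-5p was miR-497-5p itself (0.863). The most like miR-15b-5p was miR-181b-5p (r = 0.818), the most like miR-195-3p was miR-199a-3p (0.803), and the most like miR-16a-5p was let-7d-5p (0.796). For miR-16b-5p the closest over the 36 libraries, 3 of them at 0, was miR-3432-5p (r = 0.475), while over the means of the 12 groups it was miR-100-5p (0.778). Over the 33 libraries with miR-16b reads, r with miR-16a-5p was 0.844, where the part of read assignment was not tested.

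Other miRNAs with the same or nearly the same seed were listed for miR-424 only, while miR-503, miR-322 and miR-646 were not listed. In lung, miR-424-5p stood at 4.56, 22.5 and 4.02 RPM at high altitude and at 69.4, 59.4 and 109 RPM at low altitude. In liver, miR-424-5p stood at 23.6, 79.6 and 25.7 RPM at high altitude and at 194, 286 and 283 RPM at low altitude. In muscle, miR-424-5p stood at 9.44, 40.3 and 5.63 RPM at high altitude and at 91.4, 76.7 and 109.6 RPM at low altitude. In these 3 tissues every high-altitude library was under every low-altitude library, while in kidney, heart and spleen the populations overlapped. Over all miRNAs with a mean of at least 10 RPM, 12% of combinations were lower at high altitude without overlap. The log2 fold changes of miR-424-5p were -3.0 (SE 0.622, edgeR adjusted p = 0.757) in lung, -2.60 (SE 0.502, edgeR adjusted p = 0.201) in liver and -2.41 (SE 0.656, edgeR adjusted p = 0.675) in muscle. The others were -1.49 (SE 0.511, edgeR adjusted p = 0.890) in kidney, -1.05 (SE 0.523, edgeR adjusted p = 0.748) in heart and -0.37 (SE 0.708, edgeR adjusted p = 1) in spleen. The opposite arm, miR-424-3p, does not carry this seed, and its log2 fold changes were 0.86 in spleen, 0.38 in kidney, 0.28 in heart, -0.55 in muscle, -1.83 in lung and -2.02 in liver. For miR-424-5p edgeR called 0 of 6 tissues, against 0.0359% of all, with 4 lower and 0 higher at an unadjusted p under 0.05, against 8.19% of miRNAs with counts. Its median log2 fold change over the tissues was -1.95, where medians over miRNAs with counts lay between -0.21 in kidney and 0.22 in muscle. DESeq2 called 3 of 6, all lower, in liver, lung and muscle, against 3.45%. The edgeR exact test called 0 of 6, against 0.359%, with 3 lower at an unadjusted p under 0.05, against 4.57%.

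miRNAs known to respond to low oxygen, a list of 10 that includes both arms of miR-424, miR-210, miR-199a, miR-20b and miR-155, gave 0 of 60 combinations called by edgeR, against 0.0359% of all. An unadjusted p under 0.05 was found for 6 lower and 0 higher, against 8.19% of miRNAs with counts, with a median log2 fold change of -0.09. DESeq2 called 4 of 60, all lower, namely the 3 of miR-424-5p and miR-199a-5p in heart, against 3.45%. The edgeR exact test called 0, against 0.359%, with 2 higher and 3 lower at an unadjusted p under 0.05, against 4.57%. miR-210-3p, the best known of the list, was at 0 in all low-altitude libraries of muscle, spleen and heart. It had reads in 1 of 3 high-altitude libraries of each, at 6.51, 14.5 and 7.65 RPM, so its fitted fold changes there rest on 1 library and are not given. In kidney it had reads in 2 of 3 libraries of each population, in lung in 1 of 3 at high (51.1 RPM) and 2 of 3 at low altitude (29.5 and 42.2 RPM), and in liver in 3 of 3 at high and 1 of 3 at low altitude.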

How the data were processed

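Small RNA libraries (36) were described from the counts of mature miRNAs deposited by the authors, who called bases with CASAVA 1.8, aligned reads to the goat genome with Bowtie and counted listed miRNAs with miRDeep2. RPM was computed on the total of each library over all 1391 listed miRNAs. Tests used edgeR 4.0.16 in R 4.3.3 (TMM, quasi-likelihood, Benjamini-Hochberg over all miRNAs that reached 3 reads in any 1 library) and DESeq2 1.42.0 as an alternative. Exact permutation tests over goats and tables used Python 3.11.15, NumPy 2.4.6, pandas 2.3.3 and SciPy 1.17.1, and figures Matplotlib 3.10.9. The pipeline was tested on simulated data.

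Members with a mean of at least 10 RPM were named with all values, the others by ranges. For each such member the 3 most correlated of the other listed miRNAs were found, and at least the closest is named. miR-16b libraries at 0, miR-424-5p by tissue and ratios under 1 were singled out after their values were seen. Ratios inside clusters and the share of miR-16b-5p within miR-16 were not set beforehand. The ratio set beforehand, miR-15a-5p over miR-15b-5p, ran from 3.77 (lung of high-altitude goat 1) to 50.6 (muscle of high-altitude goat 2) and was not tested. Members and lists were chosen with earlier results of these data known.

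Tissues of the same goat number were taken as 1 animal. Deviations of 217 miRNAs from their group means correlated between tissues of the same number at a mean of 0.187 over 90 pairs (-0.330 to 0.658), and between the populations at 0.0358 over 18 pairs, so goats of the 2 populations were not paired. Alternatives were DESeq2, RLE size factors, library totals without TMM, a filter on low counts (filterByExpr), 1 fit over 36 libraries, the exact test, other pseudocounts, a replicate block (the goat among tissues, the goat number between altitudes) and each goat left out.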

Additional observations from a re-analysis of the deposited data

Results flagged for a closer look

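The 7 members with a mean of at least 10 RPM and the family's share of counts were each looked at in 6 tissues, which makes 48 groups of 6 libraries. In 4 of 48 groups 1 library lay far from the others by Dixon's test, where chance flags about 1 in 20 groups. miR-195-5p of goat 3 of the low-altitude population was at 236 RPM in heart, at 614 RPM in kidney and at 249 RPM in muscle, with the next highest libraries at 99.8, 217 and 70.7 RPM. miR-195-3p of goat 2 of the high-altitude population was at 27.1 RPM in muscle, with the next at 8.50 RPM.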

How the results depend on the processing

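The number of members called between altitudes was 0 with each edgeR setting and each goat left out, and 2 with DESeq2; the cause was not tested. The members called among tissues numbered 7 to 8 with single goats left out and 9 to 10 with the other settings. Tissue pairs called ranged from 26 to 37 with single goats left out (26 without goat 1 and 27 without goat 2 of the low-altitude population), and from 46 to 64 otherwise. Each fit with a goat left out also held fewer libraries, and the cause of the lower counts was not tested. The interaction test called 0 throughout. With pseudocounts of 0.1 and 10 the goat means of miR-16b-5p differed by -3.32 and -2.19.

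No altitude fold change that follows was called by edgeR, and the cause of each turned sign was not tested. In 1 fit over 36 libraries the log2 fold changes that turned their sign were -0.13 (miR-15a-5p, heart), -0.018 (miR-15a-5p, spleen), 0.10 (miR-16a-5p, lung), -0.0449 (miR-16a-5p, spleen) and -0.0445 (miR-497-5p, heart). With filterByExpr miR-15a-5p in heart was -0.00934. For miR-16a-5p in lung, DESeq2 gave 0.0619, RLE 0.0618 and the library total alone 0.0523; the last gave -0.18 for miR-15b-5p in muscle.

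Between altitudes the replicate block was the goat number, which goats of the 2 populations share without being the same animal. With it the turned values were -0.00856 (miR-15a-5p, spleen), -0.11 (miR-16a-5p, spleen) and -0.11 (miR-15b-5p, muscle). It called 0 of 72. Among tissues the replicate block was the goat itself, and the same 9 members were called. Of tissue pairs it called 58, of which 45 were among the 46 called without it, so 13 were gained and 1 was lost. The 1 lost was miR-15b-3p between liver and muscle (adjusted p 0.0374 without and 0.0594 with the block). Gained were 3 pairs each of miR-195-5p, miR-15b-3p and miR-497-3p, 2 of miR-497-5p, and 1 each of miR-15a-5p and miR-15a-3p; the replicate block changed no other call.

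Alternatives chosen after seeing the data were 4. Without the 3 libraries at 0 for miR-16b the turned values were -0.15 (miR-15a-5p, kidney), -0.40 (miR-15a-5p, spleen), -0.62 (miR-16a-5p, spleen), 0.14 (miR-15b-5p, kidney), -0.12 (miR-15b-5p, spleen) and -0.44 (miR-497-5p, kidney). With miR-16a and miR-16b summed, miR-16a in spleen was -0.18. With heart, lung and muscle alone, the goat means of miR-16b-5p differed by -0.96. Library totals without TMM called 10 members, miR-16b-3p gained, and 64 pairs among tissues.

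With single goats left out, differences that turned sign ranged as follows. The goat means ranged from -0.29 to 0.18 for miR-15a-5p and from -0.58 to 0.14 for miR-497-5p. The log2 fold change of miR-15a-5p ranged from -0.12 to 0.35 in heart, from -0.15 to 0.50 in kidney and from -0.40 to 0.41 in spleen. For miR-16a-5p it ranged from -0.45 to 0.41 in lung and from -0.62 to 0.32 in spleen. For miR-15b-5p it ranged from -0.30 to 0.14 in kidney, from -0.45 to 0.38 in muscle and from -0.17 to 0.51 in spleen. For miR-16b-5p it ranged from -0.51 to 0.16 in lung. For miR-195-5p it ranged from -1.09 to 0.18 in heart and from -0.84 to 0.052 in spleen. For miR-497-5p it ranged from -0.10 to 0.37 in heart, from -0.44 to 0.55 in kidney and from -0.57 to 0.10 in spleen. For miR-195-3p it ranged from -0.42 to 0.0082 in lung and from -0.50 to 1.02 in muscle.

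The sign of the miR-16b-5p difference held in heart, kidney, liver, muscle and spleen under each of these settings that kept miR-16b apart and with each goat left out. With 3 goats a population, the permutation test over goats cannot pass 0.05.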
